A study of Mus musculus with 21 samples.

Results

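The histone cluster genes are the tandem and divergent copies, named Hist1h to Hist4h in the mouse, that code for the linker histone H1 and the core histones H2A, H2B, H3 and H4. Of 67 rows with such a symbol among 22483 genes, 62 had a summed estimated count of at least 50 over the 21 libraries and are the members described here: 5 of H1, 16 of H2A, 17 of H2B, 12 of H3 and 12 of H4. They were chosen by that symbol and selected on the summed count alone. The members just inside it were Hist1h1t with 60 counts and Hist1h3h with 60.8, and the rows just outside were Hist2h2ab with 27.1 and Hist1h1a with 19. Hist1h2aa with 9.3 counts, Hist1h2ba with 1.1 and Hist1h4m with 0 also stayed outside. A gene read mainly late could enter through its late libraries: 58 members would have reached the sum without the 72 h libraries, and 18 from the 0 h libraries alone. Such a gene had to differ between early and late groups, so the counts of members called below are a description.

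Polyadenylated RNA was sequenced strand-specifically from MEDEP cells of the BRC5 line, mouse red cell precursors that were raised from embryonic stem cells. All groups are of this 1 line. The 0 h group grew exponentially with stem cell factor (SCF), a growth factor, and dexamethasone (dex), a glucocorticoid. The 12, 24, 36, 48 and 72 h groups had both removed and erythropoietin (Epo, 4 U/ml), which red cell precursors need to mature, added for those times. In 1 further group Epo was given for 12 h with succinyl acetone (SA), which blocks the making of heme. Each of these 7 groups held 3 libraries, given as biological replicates. The comparisons ask how histone transcripts in polyadenylated RNA change while these cells differentiate, and whether blocking heme synthesis for 12 h alters them.

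Most histone mRNAs are made in S phase, when new DNA must be packed into nucleosomes, and they are the metazoan mRNAs known to end without a poly(A) tail. Their 3′ end is cut behind a short conserved stem-loop, which the stem-loop binding protein SLBP holds, by a complex that includes the U7 snRNP. A histone transcript that is instead cut at a downstream poly(A) signal carries a tail and is kept in a library of polyadenylated RNA. The values below thus describe histone transcripts found in such libraries and not the whole histone mRNA pool. Whether each of them carried a tail was not tested. Some histone genes are known to give such transcripts in differentiated cells that no longer divide.

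The stem-loop is shown for the members that carried most of the signal, because its place decides what a tailed transcript must contain. In the GENCODE M21 annotation of GRCm38 all 62 gene IDs were found, 50 on chromosome 13, 9 on chromosome 3, 2 on chromosome 11 and 1 on chromosome 6, and 57 had a single exon. A match to the histone stem-loop consensus was found in 45 of the 52 members with an annotated 3′ UTR, 21 to 58 bases behind the stop codon (median 31). Of all protein-coding transcripts, 40198 had at least 100 annotated bases behind the stop codon. Of these, 32 (0.0796%) held a match in the first 100 bases, members included. Members with a shorter 3′ UTR are not among them, so this share and the count of 45 rest on unlike sets. The sites are written 5′ to 3′ as DNA, with the stem and loop in capitals and up to 5 bases of flank.
Hist1h1c: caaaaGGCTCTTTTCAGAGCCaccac
Hist1h2ap: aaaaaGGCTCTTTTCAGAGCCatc
Hist2h2aa2: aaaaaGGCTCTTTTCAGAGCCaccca
Hist3h2a: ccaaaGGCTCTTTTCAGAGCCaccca
Hist1h4i: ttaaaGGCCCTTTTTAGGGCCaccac
Hist1h4n: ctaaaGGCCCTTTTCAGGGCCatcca
The same 16 letters stood in 26 members of types H1, H2A, H2B and H3, Hist1h1c, Hist1h2ap and Hist3h2a among them. The H4 genes carried other stems. The annotation differed in what follows the loop. It went on for 840 bases in Hist1h1c, 1643 in Hist3h2a and 330 in Hist1h4i, but for 3 bases in Hist1h2ap and 31 in Hist1h4n. In all, 23 members had at least 100 annotated bases behind the loop, and 14 had the poly(A) signal AATAAA there. The 3′ UTRs of Hist1h2bc, Hist1h2bq, Hist1h2br and Hist2h2be, of 742, 1608, 1803 and 2192 bases, held no match.

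Many members are near copies of each other. Of all 62, 39 shared over 50% of their 31-base words with another annotated transcript. Words were matched on either strand here and below. Transcripts of the opposite strand can thus add to these shares, though the libraries were strand-specific. The most alike were Hist1h2ap and Hist1h2ao (93.4 and 93.8%), Hist1h2bq and Hist1h2br (98.3 and 89.5%), and Hist2h2aa1 and Hist2h2aa2 (100% each). In 41 members no estimated count was a whole number, so reads had been divided between transcripts, and the split between such copies is uncertain. Sums of the copies are given beside the single values.

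Levels are given in transcripts-per-million (TPM), which allow for transcript length. Changes are log2 ratios on 2 scales. The TMM scale compares counts after a scaling that sets the typical gene to no change, and is the scale of the tests. The TPM scale compares log2(TPM + 1), which understates changes of low genes. The scales part late in the course: on the TMM scale the median of all tested genes moved by -0.13 between 0 h and 72 h, on the TPM scale by -3.26. The 15 erythroid markers, globins included, moved with this, from a summed 1850 to 2170 normalized counts-per-million (CPM) at 0 h to 590000 to 929000 at 72 h. TMM-normalized CPM need not add up to the same total in each library. Fewer cells with a transcript and less of it per cell cannot be told apart in such bulk samples. A member was called higher or lower at an adjusted p of at most 0.05.

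The libraries held 16700000 to 39300000 counts each. The members took 0.0225 to 0.0241% of the counts at 0 h and 0.187 to 0.33% at 72 h. The first 72 h library stood apart: its members lay a median 0.47 above their 72 h mean on the TMM scale, against -0.2 and -0.25 in the others. In the first 36 h library the 11 stromal markers summed to 35 CPM, where the lowest 36 h library had 0.77. Of 8 megakaryocyte and platelet markers Ppbp was at 0 throughout, and the list summed to 14.4 to 19.2 CPM at 0 h and 719 to 1120 at 72 h, led by Itga2b. The 9 macrophage markers reached at most 11.5 CPM, the 8 neutrophil markers (S100a8 and S100a9 at 0) 7.88, the 6 pluripotency markers 3.72 and the 9 germ cell markers (Prm1 at 0) 8.24. The germ cell list itself holds the member Hist1h1t and the rows Hist1h2ba and Hist1h2aa. It was led at 12 h by Dazl, with a mean of 6.17 CPM. The 7 mast cell markers (Mcpt8 at 0) fell in sum from at most 47.3 CPM at 0 h to at most 8.3 at 72 h. The part of these markers in the histone values was not tested.

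Summed over the members, histone transcripts in polyadenylated RNA had their highest TPM at 24 h and their highest TMM-normalized CPM at 72 h. Their make-up changed after 24 h. At 0 h the summed TPM was 838 ± 37 (SD, n = 3). It was 1630 ± 273 at 12 h, 2350 ± 234 at 24 h, 957 ± 152 at 36 h, 979 ± 362 at 48 h and 1100 ± 444 at 72 h. In CPM the sum was higher at each time, at 139 ± 3.08, 303 ± 5.1, 599 ± 22.6, 1950 ± 298, 3180 ± 185 and 4920 ± 766, so from 24 h to 36 h the scales went opposite ways. Up to 24 h this was mostly 1 H2A gene, Hist1h2ap, with 84% of the sum at 0 h and 73.6% at 24 h. Its own mean was 1730 ± 276 TPM at 24 h and 238 ± 106 at 36 h. The peak of the TPM sum at 24 h and its drop to 36 h were thus in this gene. A sum of all other members was not computed. From 36 h the leading member was the H1 gene Hist1h1c, with 34.4% at 36 h, 33.7% at 48 h and 15.7% at 72 h. By type, the sum at 72 h was 7.21 times that at 0 h for H1, 6.8 times for H2B, 6.56 times for H4 and 2.36 times for H3, but 0.533 times for H2A. On the TMM scale all 5 types summed higher at 72 h, with a ratio of 14.1 for H2A. The direction of the H2A sum over the course thus also depends on the scale. In TPM its fall was in Hist1h2ap, which had 704 ± 35.5 TPM of 729 ± 32.8 at 0 h. At 72 h this gene had 18.9 ± 9.1 of 389 ± 181. No test was made on these sums.

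**Figure D1:**
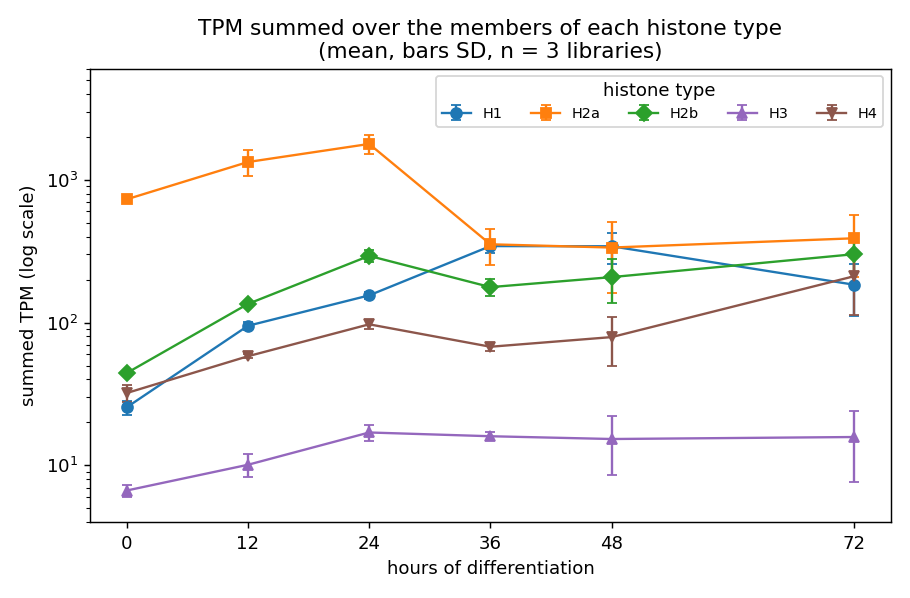
Summed TPM of the members of each histone type (log axis) against hours of differentiation, as the mean of 3 libraries with SD bars. H2a leads by far up to 24 h and falls to 353 at 36 h, where H1 stands at 343.

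H1 is the linker histone, which sits on the DNA between nucleosomes. Hist1h1c, which codes for H1.2, made up 88.2 to 96.5% of the H1 sum in every group. Its TPM in the 3 libraries was 20.7, 21.3 and 25.4 at 0 h, 97.3, 86.9 and 85.9 at 12 h, and 155, 139 and 142 at 24 h. It was 291, 357 and 341 at 36 h, 278, 286 and 426 at 48 h, and 232, 102 and 185 at 72 h. Each group up to 36 h lay above the one before it without overlap, 36 h and 48 h overlapped, and all 72 h libraries lay below those of 48 h. On the TMM scale it rose by 2.04 ± 0.12 (SE) from 0 h to 12 h (adjusted p = 2.26e-11), by 0.99 ± 0.12 to 24 h (1.56e-06) and by 3.21 ± 0.13 to 36 h (1.49e-14), and on the TPM scale by 1.96, 0.69 and 1.17. Between 48 h and 72 h it was not called on the TMM scale (-0.25 ± 0.12, adjusted p = 0.0668), and was called lower on the TPM scale (-0.98, limma adjusted p = 0.000577). Over the whole course it rose by 6.6 ± 0.15 (4.85e-19) and by 2.81 in TPM.

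The other H1 members were low. Hist1h1b, for H1.5, had 1.53, 0.777 and 1.68 TPM at 0 h, reached 7.34 ± 0.961 at 36 h and had 9.61, 3.47 and 5.06 at 72 h. All of its 72 h libraries lay above all of those at 0 h, on the TMM and the TPM scale (5.68 ± 0.3, adjusted p = 1.49e-13, and 1.53). Hist1h1d, for H1.3, rose from 0.315 ± 0.0964 TPM to 2.52 ± 0.28 at 36 h and had 0.68 ± 0.423 at 72 h. Its change between 48 h and 72 h was called lower on both scales, -0.54 ± 0.19 (adjusted p = 0.0187) and -0.65. Hist1h1e, for H1.4, kept 4.06 ± 0.376 TPM at 36 h and had 8.33, 2.23 and 1.72 at 72 h, the first 72 h library being far above the rest. Hist1h1t, the testis form, was at 0 in all 0 h libraries, stayed at or below 0.169 TPM on average and was too low to test.

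H2A and H2B form the dimers on the outside of the nucleosome core. Hist1h2ap (chr13:21833026-21833507, minus strand, GRCm38) had the highest level of any member up to 24 h and was the one member called lower from 0 h to 72 h. It had 664, 715 and 732 TPM at 0 h, 1070, 1210 and 1600 at 12 h and 1450, 1730 and 2000 at 24 h. It then had 156, 201 and 357 TPM at 36 h, 36.6, 40.2 and 176 at 48 h and 22.1, 8.61 and 25.9 at 72 h. In TPM every library at 36 h or later lay below every 0 h library. In TMM-normalized CPM it had 90.7, 92.1 and 92.6 at 0 h and 114, 157 and 239 at 36 h, so at 36 h the direction turned with the scale, and 32.6, 24.9 and 34 at 72 h. On the TMM scale it rose by 0.85 ± 0.23 to 12 h (adjusted p = 0.00396) and by 0.76 ± 0.23 to 24 h (0.0114), rises of 0.86 and 0.42 that were not called on the TPM scale. It then fell by 0.72 to 36 h (0.00824), by 1.35 to 48 h (8.86e-05) and by 1.13 to 72 h (0.000482). On the TPM scale these steps were -2.93, -1.79 and -1.84, and the change over the course was -5.28. All of these were called lower there. The replicates overlapped between 24 h and 36 h on the TMM scale, and without the first 36 h library that call was lost.

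Hist1h2ao, the near copy of Hist1h2ap, moved the other way late. Its TPM was 3.06, 2.74 and 4.24 at 0 h, 6.81, 6.48 and 7.5 at 48 h and 35.9, 9.37 and 34.2 at 72 h, so the 72 h libraries lay above those of 0 h and 48 h. It rose by 6.52 ± 0.48 from 0 h to 72 h (adjusted p = 3.42e-11) while Hist1h2ap fell by 1.59 (3.5e-06). With the counts of both summed, the change from 0 h to 72 h was -0.43 ± 0.23 (adjusted p = 0.0811) and from 48 h to 72 h -0.11 ± 0.23 (0.713), so neither fall was called. The summed falls to 36 h (-0.72, adjusted p = 0.0076) and to 48 h (-1.22, 0.000186) were called. Together they had 707 ± 35.9 TPM at 0 h, 1730 ± 278 at 24 h and 45.4 ± 23.8 at 72 h.

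The H2A genes with the highest mean levels at 72 h were outside the large cluster on chromosome 13. Hist2h2aa1 and Hist2h2aa2, the identical pair on chromosome 3, summed to 7.33 ± 2.19 TPM at 0 h, 16.8 ± 3.89 at 24 h, 76.3 ± 7.52 at 36 h, 186 ± 73.7 at 48 h and 257 ± 130 at 72 h. Their sum rose by 4.23 ± 0.25 between 24 h and 36 h (adjusted p = 6.05e-12) and by 8.48 ± 0.3 over the course (1.82e-16). Hist3h2a on chromosome 11 had 3.45, 2.71 and 3.79 TPM at 0 h, 10.2, 10.9 and 8.88 at 24 h, 31.3, 32.9 and 52.6 at 48 h and 64.5, 26.6 and 61.6 at 72 h. It was called higher at each of the 5 steps on the TMM scale, on the TPM scale at each but the last (0.32, limma adjusted p = 0.256), and over the course by 7.87 ± 0.21 (2.96e-18; 3.49 on the TPM scale). Of its 31-base words 32.1% also lie, on either strand, in the transcripts of Trim17, a ubiquitin ligase gene. At 72 h Hist2h2aa2, Hist2h2aa1 and Hist3h2a held 37.2, 28.8 and 13.1% of the H2A sum, where Hist1h2ap had held 96.5% at 0 h. Hist1h2an was at 0 in all 0 h libraries and had 5.11, 1.27 and 1.95 TPM at 72 h, and its fitted changes from 0 h are no bound.

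Hist1h2bc led the H2B genes, with 48.4 to 80% of their sum. It had 27.2, 27.9 and 32.1 TPM at 0 h, 103, 103 and 105 at 12 h and 261, 232 and 210 at 24 h. It had 114, 140 and 156 at 36 h, 93.5, 126 and 203 at 48 h and 186, 94.4 and 156 at 72 h. The first 3 times did not overlap, and the last 3 did. It rose by 1.88 ± 0.14 to 12 h (adjusted p = 7.09e-10) and by 1.54 ± 0.14 to 24 h (3.58e-08). The step to 36 h was called higher on the TMM scale, by 1.4 ± 0.14 (1.08e-08), and lower on the TPM scale, by -0.78 (limma adjusted p = 0.00334).

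Hist1h2bq and Hist1h2br rose most of all H2B genes. Hist1h2br had 0.447, 0.547 and 0.233 TPM at 0 h, 2.55, 1.37 and 1.94 at 36 h, 13, 3.02 and 16.5 at 48 h and 59.6, 27 and 40.7 at 72 h. Its 72 h libraries lay above all others. Summed with Hist1h2bq it reached 82.6 ± 32.9 TPM at 72 h from 1.14 ± 0.266 at 0 h, and rose by 9.88 ± 0.28 (adjusted p = 7.12e-18). The transcript length that its counts per TPM imply fell late. Scaled by 186 genes with 1 annotated transcript, it lay between 2119 and 2140 bases at 12 h, 1866 and 2085 at 24 h and 2058 and 2103 at 36 h. It lay between 1250 and 1822 at 48 h and 1050 and 1323 at 72 h, which overlapped each other but not these earlier times. At 12 h with SA it lay between 1742 and 2131, which overlapped the 48 h values. At 0 h, with few counts, it lay between 1079 and 1993. In the 186 genes themselves the implied length ran from 0.647 to 1.31 times the annotated length, apart from the extremes at either end. For Hist1h2bq the 72 h values of 1481 to 1929 bases overlapped those of 36 h, 1624 to 1717. Hist1h1c, with 1 annotated transcript, also had a shorter implied length at 72 h, 1530 to 1575 bases against 1748 to 1788 at 0 h, as did Hist2h3c1 (1449 to 1549 against 1799 to 1803) and Hist1h2be (2180 to 2297 against 2493 to 2528). The cause of these shifts was not tested.

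Hist2h2be, an H2B gene that shares 2.82% of its words with other transcripts, had its peak at 24 h in TPM. It had 3.52, 4.08 and 4.5 TPM at 0 h, 22.5, 24 and 25.1 at 24 h, 7.24, 7.64 and 8.01 at 36 h and 5.46, 1.56 and 2.49 at 72 h. The 24 h libraries lay above all others. From 0 h to 72 h it was called higher on the TMM scale, by 3.42 ± 0.22 (adjusted p = 3.85e-12), while the TPM scale gave -0.38 (limma adjusted p = 0.0931). Hist1h2bh had 1.23 ± 0.383 TPM at 0 h, 4.04 ± 0.508 at 24 h and 0.398 ± 0.121 at 72 h. It was called lower from 48 h to 72 h on both scales (-0.72 ± 0.21, adjusted p = 0.00511, and -0.6), and over the course higher on the TMM scale (2.11) and lower on the TPM scale (-0.66).

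H3 and H4 form the tetramer at the heart of the nucleosome. The H3 members were low throughout, with a sum of 6.67 ± 0.615 TPM at 0 h, 17 ± 2.29 at 24 h and 15.8 ± 8.19 at 72 h, and the gene that led changed. Hist1h3g held 20% of the H3 sum at 0 h and 20.7% at 24 h, Hist2h3c1 22.3% at 36 h and Hist1h3i 45.9% at 72 h. Hist1h3i had 1.37, 1.37 and 0 TPM at 0 h, 3.63, 3.38 and 1.94 at 36 h and 10.7, 3.32 and 7.68 at 72 h, a rise of 6.46 ± 0.54 (adjusted p = 2.98e-10; 2.1 on the TPM scale). It shares 85.3% of its 31-base words with Hist1h3h. Hist1h3g had 0.882, 2.25 and 0.861 TPM at 0 h, 3.92, 4.24 and 2.38 at 24 h and 0.155, 0.0665 and 0.391 at 72 h. All 72 h libraries lay below those of 0 h and 24 h in TPM, but 0 h and 72 h overlapped on the TMM scale. The 2 scales gave opposite calls over the course, higher by 1.21 ± 0.52 (adjusted p = 0.0332) on the TMM scale and lower by -0.91 in TPM (limma adjusted p = 0.000557). The call for higher was lost without the first 0 h library (0.99, adjusted p = 0.106), the third 0 h library (0.91, 0.125) or the third 72 h library (0.61, 0.341). Hist2h3c1 rose to 3.57 ± 0.66 TPM at 36 h from 0.498 ± 0.19 at 0 h and had 1.69 ± 0.675 at 72 h. Its words all lie, on either strand, in Gm20634 as well, which was not analysed here. Hist1h3c had 2.7 ± 0.164 TPM at 24 h and 0.992 ± 0.475 at 72 h.

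Among the H4 genes Hist1h4i led up to 48 h and Hist1h4n at 72 h. Hist1h4i had 16.8, 16.1 and 19.6 TPM at 0 h, 57.1, 56.5 and 50.4 at 24 h, 35.3, 34.6 and 37.4 at 36 h and 117, 46.4 and 89.8 at 72 h. It thus had a first high level at 24 h, and the second 72 h library lay below the 24 h libraries. It was called higher at all 5 steps on the TMM scale. On the TPM scale the step from 24 h to 36 h was called lower, at -0.6 against 1.4 ± 0.12 (adjusted p = 1.03e-09), and that to 48 h was not called (0.01). Hist1h4n (chr13:21831767-21832196, minus strand) had 4.44, 1.84 and 3.07 TPM at 0 h, 6.19, 6.17 and 4.18 at 24 h and 9.93, 10.2 and 9.88 at 36 h. It had 20.6, 18.9 and 30.8 at 48 h and 151, 50.5 and 98.5 at 72 h, and each of the last 3 groups lay above the one before it. It rose by 2.89 ± 0.27 to 36 h (5.37e-09), by 1.72 ± 0.21 to 48 h (1.35e-06) and by 2.78 ± 0.19 to 72 h (1.24e-10), and each of these steps was also called higher in TPM. It shares 85.2% of its words with Hist1h4m, whose own count was 0. Hist1h4h had 1.82 ± 0.741 TPM at 0 h and 13.7 ± 6.66 at 72 h. Hist1h4k had its highest mean at 24 h, 24.7 ± 4.04 TPM, from 4.89 ± 2.61 at 0 h, and 5.25 ± 2.51 at 72 h. Its change over the course was 3.39 ± 0.29 on the TMM scale (5.37e-10) and 0.08 on the TPM scale (limma adjusted p = 0.812).

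**Figure D2:**
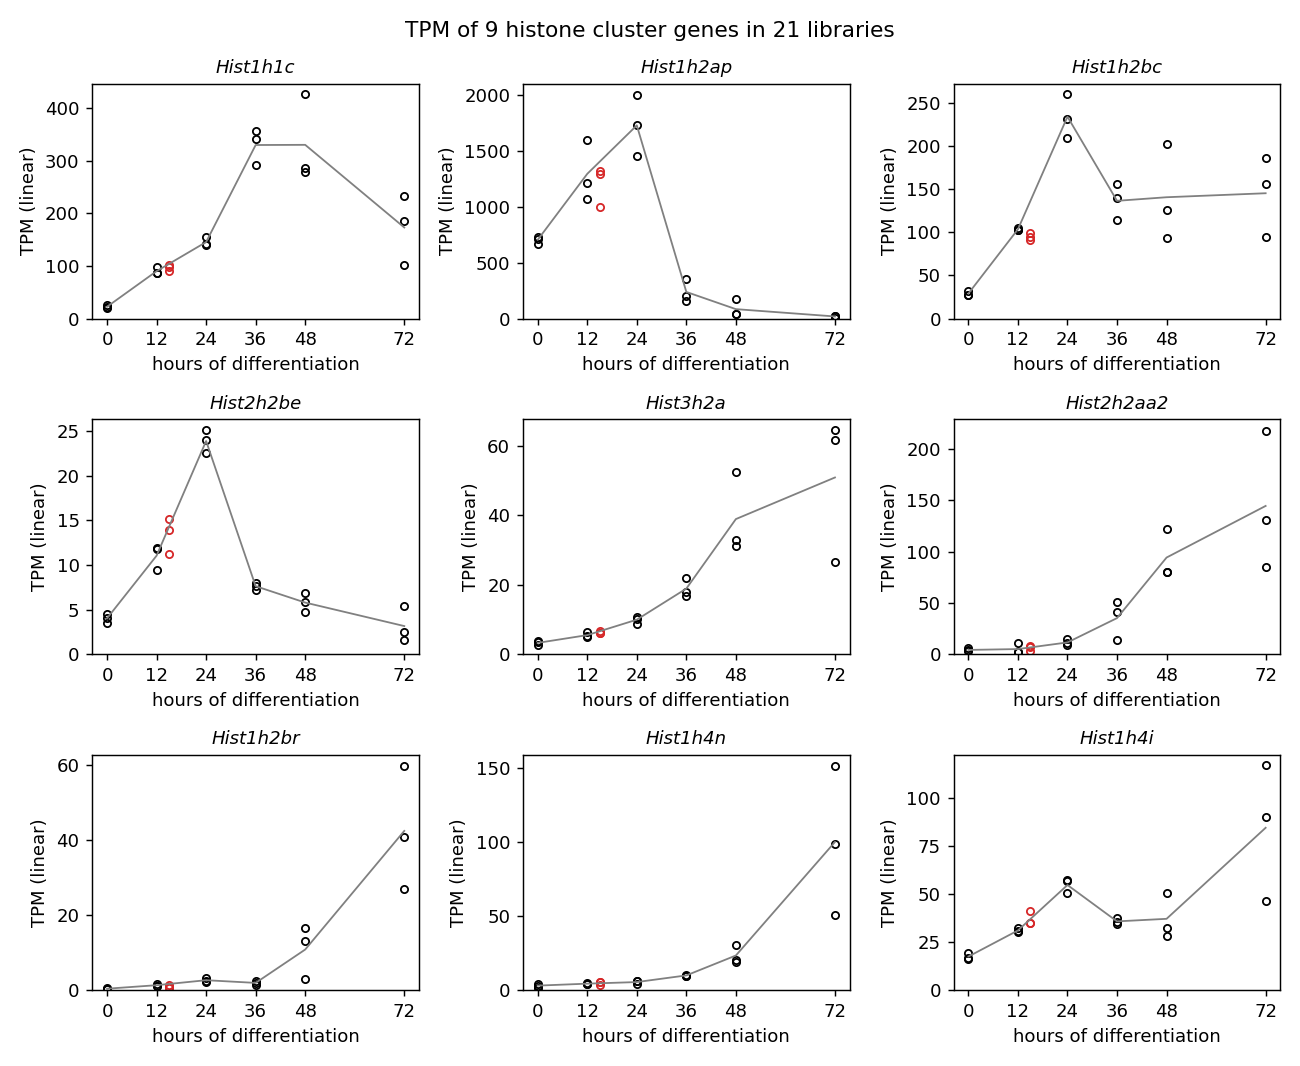
TPM (linear axes starting at 0) of 9 members in each of the 21 libraries against hours of differentiation. Black circles are libraries of the time course, the gray line joins their means, and red circles, set 3 h to the right, are the 12 h libraries with succinyl acetone. Hist1h2ap, Hist1h2bc and Hist2h2be have their highest mean at 24 h, Hist1h1c at 36 h and 48 h, and the other 5 at 72 h.

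The time of the highest mean TPM was 24 h or 72 h for most of the 62 members. The shares of all genes were not computed in TPM, so the counts are a description. It fell at 24 h for 23 members and at 72 h for 27, at 12 h for 2, at 36 h for 5 and at 48 h for 5. In normalized CPM, 48 members were highest at 72 h and 1 at 24 h. Of all tested genes 28.6% were highest at 72 h in CPM, 11% at 24 h and 29.7% at 0 h. None of the 62 was highest at 0 h on either scale.

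Of the 56 members with enough counts to test (4 of H1, 15 of H2A, 16 of H2B, 9 of H3, 12 of H4), 18 were called higher and 0 lower at 12 h against 0 h. Of all 12360 genes 25.3% were called higher and 27.6% lower. The members too low to test were Hist1h1t, Hist1h2af, Hist1h2bl, Hist1h3a, Hist1h3h and Hist2h3b. The median change was 0.71 in the members and -0.01 in all genes. Besides Hist1h1c and Hist1h2bc, the largest called rises without overlap, at a mean count of at least 20, were those of Hist1h2br (2.2 ± 0.6, adjusted p = 0.0039, but 0.73 with a limma adjusted p of 0.0881 on the TPM scale), Hist2h3c2 (1.94 ± 0.67, 0.0191) and Hist1h2bg (1.8 ± 0.43, 0.00121). The call of Hist2h3c2 was lost without the third 0 h library (1.31, adjusted p = 0.0952). No member had an unadjusted p under 0.05 for a fall in edgeR, and DESeq2 and limma on TPM called none lower either. On the TPM scale 14 of 42 members were called higher and 0 lower, against 20.9 and 31.1% of all genes.

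From 12 h to 24 h 23 members were called higher and 0 lower, against 19.1 and 22% of all genes, with a median of 0.99. No fall had an unadjusted p under 0.05 here, and DESeq2 and limma called none. All 4 tested H1 genes were called higher, and 9 of 16 H2B, 4 of 15 H2A, 2 of 9 H3 and 4 of 12 H4 genes. Hist1h2bq rose by 2.24 ± 0.38 (adjusted p = 8.16e-05), Hist1h2bp by 2.21 ± 0.47 (0.000751), Hist1h1d by 1.7 ± 0.22 (4.39e-06) and Hist1h1e by 1.53 ± 0.43 (0.00759). In TPM 16 of 42 were called higher and 0 lower, beside 6.32 and 45% of all genes.

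The step from 24 h to 36 h showed the clearest split between the scales. On the TMM scale 42 members were called higher and 1, Hist1h2ap, lower, against 34.1 and 39% of all genes, and the median was 1.79. On the TPM scale 11 were called higher and 11 lower, against 4.3 and 89.1%, with a median of -0.09 beside -1.84 for all genes. The 11 called higher on both scales were Hist1h1b, Hist1h1c, Hist1h1d, Hist1h2ac, Hist1h2bq, Hist1h4c, Hist1h4n, Hist2h2aa1, Hist2h2aa2, Hist2h3c1 and Hist3h2a. Hist1h2ac, an H2A gene with a long 3′ UTR, rose by 3.57 ± 0.22 (adjusted p = 1.21e-11; 1.12 in TPM), and Hist1h4c by 3.17 ± 0.42 (8.38e-07). Without the first 36 h library, the one with stromal markers, 39 of 61 tested members were called higher and 0 lower, and Hist1h2ap was no longer called.

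From 36 h to 48 h 23 members were called higher and 2 lower, against 20 and 29.7% of all genes, with a median of 0.58. The largest rises were in Hist1h2br (2.48 ± 0.31, adjusted p = 2.05e-06), Hist3h2ba (2.44 ± 0.51, 0.000492), Hist1h2bk (2.23 ± 0.51, 0.001), Hist1h2bq (2.11 ± 0.26, 1.42e-06) and Hist1h2ao (2.05 ± 0.47, 0.00111). Those lower were Hist1h2ap and the H4 gene Hist1h4j (-1.02 ± 0.29, 0.00585), both also lower in TPM. Without the third 48 h library 4 of 61 tested members were called lower. In TPM 8 were called higher and 7 lower, against 2.58 and 62.5%.

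From 48 h to 72 h 38 members were called higher and 3 lower, against 24.7 and 34.5% of all genes, with a median of 1.33. Hist1h4n, Hist1h2bp (2.69 ± 0.29, adjusted p = 1.22e-07), Hist1h2br (2.6 ± 0.28, 9.71e-08), Hist1h2ao (2.43 ± 0.38, 1.14e-05) and Hist1h2bk (2.42 ± 0.38, 1.6e-05) rose most, and Hist1h2ap, Hist1h1d and Hist1h2bh were lower. Without the first 72 h library 6 of 58 tested members were called lower. In TPM 15 were called higher and 6 lower, against 4.59 and 59.3%.

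Over the whole course, 72 h against 0 h, 55 members were called higher and Hist1h2ap lower, against 43.3 and 46.5% of all genes, with a median of 5.59 beside -0.13. On the TPM scale 28 of 42 were called higher and 3 lower, against 5.26 and 90.9%, with a median of 1.39 beside -3.26. The 3 were Hist1h2ap on both scales, and Hist1h2bh and Hist1h3g, which were called higher on the TMM scale. Replicates did not overlap between 0 h and 72 h in 55 of the 56, and in 89.5% of all genes. Hist1h2ac had 0.712, 0.891 and 0.418 TPM at 0 h and 26, 9.57 and 16.2 at 72 h, a rise of 8.59 ± 0.27 (adjusted p = 3.84e-17; 3.35 in TPM). Of the 22 tested members that share at most 50% of their words, 22 were called higher, and of the other 34, 33.

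**Figure D3:**
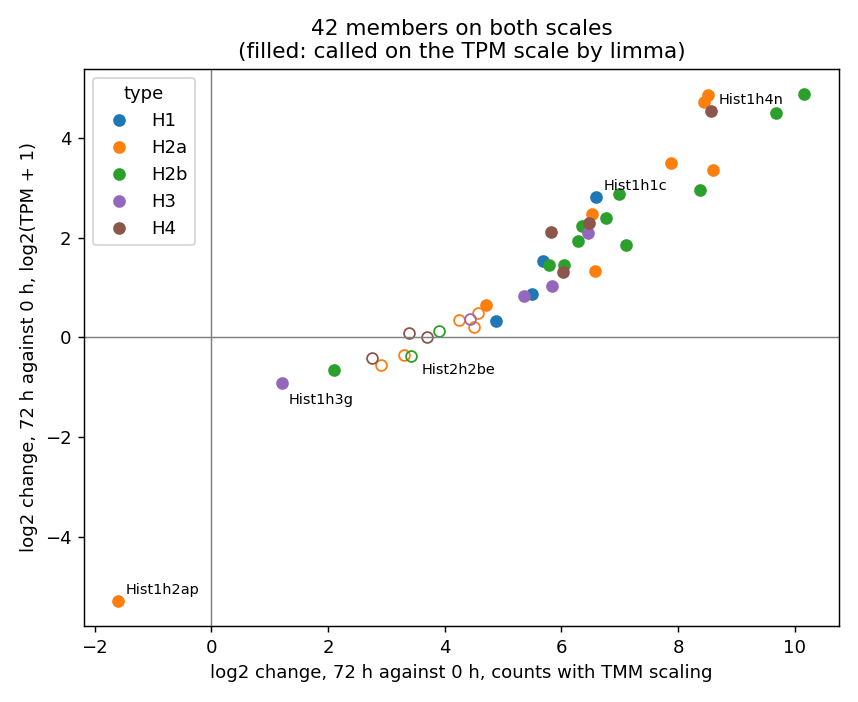
Log2 change from 0 h to 72 h of the 42 members tested on both scales, with counts after TMM scaling on the horizontal axis and log2(TPM + 1) on the vertical axis. Colours mark the histone type, and filled points were called in TPM. All but Hist1h2ap lie to the right of 0, and of the points below 0 in TPM those of Hist1h2ap, Hist1h2bh and Hist1h3g are filled.

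No member passed the test for a difference with succinyl acetone. At 12 h with SA against 12 h without, 0 of 56 members were called higher and 0 lower, against 0.0162 and 0.364% of all genes, and DESeq2 also called 0. Limma on TPM called 0, against 0.0315 and 0.346% of all genes. At an unadjusted p under 0.05, 2 were higher and 1 lower, and the lowest adjusted p was 0.697. The summed TPM was 1550 ± 171 with SA and 1630 ± 273 without. Hist1h2ap had 999, 1290 and 1320 TPM with SA and 1070, 1210 and 1600 without, a change of -0.07 with a 95% interval of -0.55 to 0.41. Hist1h1c had 102, 90.4 and 97.2 TPM with SA, of which the first lay above all libraries without it, and a change of 0.08 (-0.17 to 0.33). Hist1h4i was higher in all 3 SA libraries, at 34.8, 41.3 and 35.1 TPM against 30.6, 32.3 and 30.3, with a change of 0.24 (-0.01 to 0.49, adjusted p = 0.83). In 9 members the replicates did not overlap, and in 24.2% of all genes. Over the 18 members with a mean count of at least 100 the intervals, from the standard error without adjustment, reached from -1.59 to 1.43.

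Many H2A and H2B genes lie head to head. Of the members, 12 pairs within 1000 bases of each other were transcribed away from a shared stretch, 11 of them an H2A with an H2B gene. Both genes were tested in 11 pairs, with stretches of 175 to 659 bases. In 10 of these 11 both were called higher from 0 h to 72 h on the TMM scale, as were 55 of the 56 tested members and 43.3% of all genes, so the count tells nothing of pairs. On the TPM scale both genes were tested in 7 pairs and both called higher in 3. The exception was Hist1h2ap with Hist1h2br, at -1.59 ± 0.24 and 10.16 ± 0.45 across 235 bases. Hist1h2bq and Hist1h2ao, the near copies of these genes, face each other across 267 bases and changed by 9.67 ± 0.38 and 6.52 ± 0.48. Since reads of the copies cannot be told apart with certainty, the single values within the first pair depend on the division of reads. With each gene summed with its near copy, the change on the TMM scale was -0.43 ± 0.23 for H2A (adjusted p = 0.0811). For H2B it was 9.88 ± 0.28 (7.12e-18). The stretch between Hist1h2ap and Hist1h2br is shown as the one whose genes parted, and that between Hist1h2ac and Hist1h2bc as one whose genes both rose and are among the less shared (16.9 and 33.5% of words). Both are on the plus strand of GRCm38, from RefSeq's promoter windows, with matches on either strand in capitals, to CCAAT, to the TATA box motif TATAAA and to the octamer motif ATTTGCAT.
Hist1h2ap to Hist1h2br, chr13:21833508-21833742: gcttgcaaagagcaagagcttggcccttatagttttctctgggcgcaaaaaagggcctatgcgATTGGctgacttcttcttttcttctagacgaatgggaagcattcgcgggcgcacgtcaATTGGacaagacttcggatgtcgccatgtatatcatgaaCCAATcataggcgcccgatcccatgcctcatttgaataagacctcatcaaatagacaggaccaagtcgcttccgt
Hist1h2ac to Hist1h2bc, chr13:23683949-23684198: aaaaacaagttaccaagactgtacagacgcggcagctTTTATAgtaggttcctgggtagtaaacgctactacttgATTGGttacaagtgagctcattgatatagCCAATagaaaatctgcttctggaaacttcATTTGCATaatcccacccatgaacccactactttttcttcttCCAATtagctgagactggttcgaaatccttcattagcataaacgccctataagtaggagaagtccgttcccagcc
The first held 3 matches to CCAAT and none to the others, the second 3 to CCAAT, 1 to TATAAA and 1 to ATTTGCAT. In RefSeq windows from 250 bases before to 50 after each start, CCAAT on either strand stood in 50 of 58 windows of 57 members (86.2%) and in 37.4% of all 32851 windows. It was in all H1, H2A, H2B and H3 windows but in 3 of 11 of H4. TATAAA stood in 51.7% of the members' windows and 13.6% of all, and ATTTGCAT in 20.7 and 1.74%, in 6 H2A and 6 H2B windows and none of the other types. Windows of head-to-head genes overlap, so the same site can count in both windows of a pair. These are thus counts of windows and not of separate sites. No motif contains another. A match is a description of letters only.

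**Figure D4:**
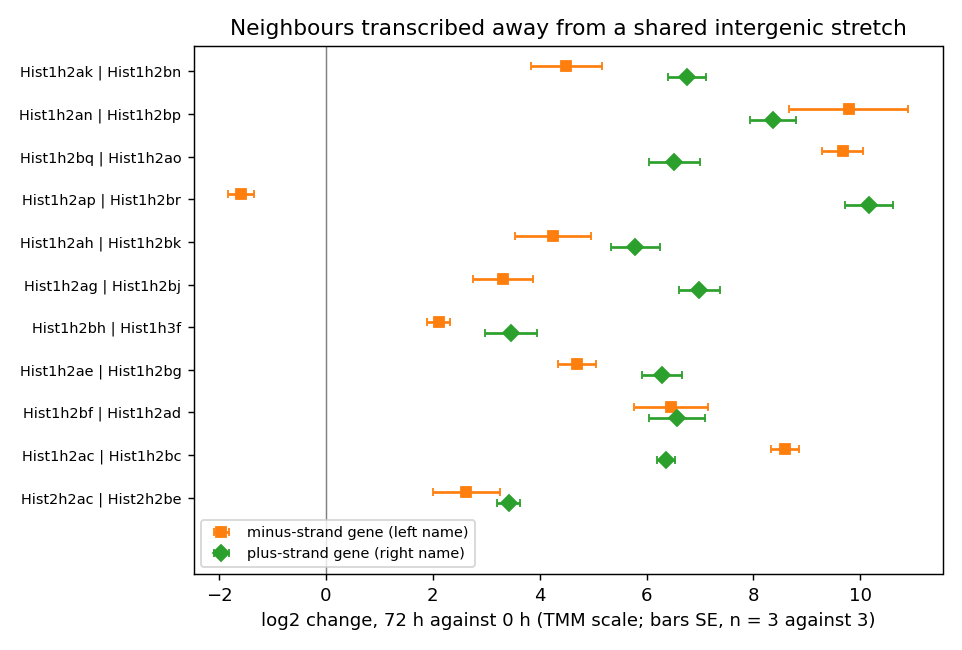
Log2 change from 0 h to 72 h on the TMM scale, with SE bars, for both genes of the 11 divergent pairs with both tested. Orange squares are the minus-strand and green diamonds the plus-strand genes. Hist1h2ap alone lies left of 0, beside Hist1h2br at 10.16, and Hist1h2an was at 0 in all 0 h libraries.

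Grouped by the annotated 3′ UTR, the sums turned on single genes. The 25 members with at least 200 annotated bases summed to 87.5 ± 8.63 TPM at 0 h, 504 ± 38 at 24 h, 572 ± 57.4 at 36 h and 589 ± 229 at 72 h. Without Hist1h1c the other 24 had 65 ± 6.13, 358 ± 30.8, 243 ± 24.9 and 416 ± 162. The 37 members with less or no annotated 3′ UTR summed to 750 ± 29.6, 1840 ± 271, 385 ± 107 and 511 ± 229. Without Hist1h2ap and Hist1h2ao the other 35 had 43.6 ± 7.65, 109 ± 14.2, 145 ± 5.06 and 466 ± 205, so the drop of that sum at 36 h was in these near copies. From 24 h to 36 h, where 34.1% of all genes were called higher and 39% lower on the TMM scale, 22 of 24 tested members of the long set were called higher, and 20 of 32 of the short set higher and 1 lower. On the TPM scale, with 4.3% of all genes higher and 89.1% lower, 7 of 17 were higher and 4 lower in the long set, and 4 of 25 higher and 7 lower in the short set. Over the course the medians were 5.76 and 4.73 (1.86 and 1.33 in TPM), and from 48 h to 72 h 1.07 and 1.54 (0.07 and 0.54 in TPM). The difference between the sets was not tested.

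In a broad list of genes around the 3′ end of histone mRNA, most were lower at 72 h than at 0 h on the TMM scale. The list also holds genes of mRNA decay, of cap binding and of general cleavage and polyadenylation. Its counts are thus not those of the tail-less end alone. Over all genes 43.3% were called higher and 46.5% lower. For the lists below, TPM values are log2 ratios of group means with 0.1 added, on which the median of all tested genes was -3.44. Of 25 tested genes of histone 3′ end processing, 5 were called higher and 17 lower from 0 h to 72 h, with a median of -1.12 (-4.55 in TPM). Slbp, the stem-loop binding protein, was higher at 24 h than at 12 h (0.78 ± 0.1, adjusted p = 5.28e-06; 0.44 in TPM) and lower at 36 h than at 24 h (-1.08 ± 0.11, 1.33e-08; -3.11 in TPM). Of 21 genes of general cleavage and polyadenylation, some of which are in both lists, 5 were higher and 14 lower, with a median of -0.47 (-4.24 in TPM). Of 26 S phase genes, which include cyclin E and the MCM helicase, 17 were higher from 12 h to 24 h, 1 was higher and 24 lower from 24 h to 36 h (of all genes 19.1% were higher in the first of these steps, and 34.1% higher and 39% lower in the second), and 2 were higher and 23 lower over the course, with a median of -3.11 (-6.51 in TPM). E2f2 and Rrm2 were the 2, at 3.08 and 0.99 (-0.9 and -2.87 in TPM). Of 20 histone chaperones 3 were higher and 16 lower over the course. Daxx, a chaperone of H3.3, was higher by 3.9 (0.93 in TPM) and Cabin1, of the HIRA complex, by 2.7 (-0.84 in TPM). Rbbp7 and Nap1l1 were at -3.99 and -3.91 (-7.4 and -7.63 in TPM).

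The replication-independent histone variants, most of whose mRNAs normally carry a tail, were called in shares near those of all genes. Of 10 tested of 11 in the table, 5 were called higher and 4 lower from 0 h to 72 h, beside 43.3 and 46.5% of all genes, with a median of 0.05 beside 5.59 for the cluster members. H3f3a and H3f3b, for H3.3, rose by 2.67 ± 0.08 (adjusted p = 9.5e-18) and 2.26 ± 0.09 (9.8e-16), but in TPM gave -1.33 and -1.75. H1f0, the linker histone of differentiated cells, rose by 1.88 ± 0.12 to 12 h (6.53e-11) and by 1.24 ± 0.12 to 24 h (8.72e-08), and was lower at 72 h than at 48 h (-1.68 ± 0.12, 4.05e-10), with 1.83, 0.91 and -2.45 in TPM. H2afy, for macroH2A, was lower by -5.73 ± 0.12 over the course (3.03e-19; -8.76 in TPM). No test compared the variants with the cluster genes.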

How the data were processed

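Of the 2 deposited tables the first holds the authors' estimated counts per gene, without scaling for depth (78.5% whole numbers, tolerance 1e-06), and the second their TPM per gene. The submitters' processing notes name DESeq2, kallisto and STAR (2.5.3a) beside GRCm38.p5 and mm10; which tool made which table is not given in the sources used here. Estimated counts were rounded. Genes passing filterByExpr (minimum count 10) were fitted as 7 groups in edgeR 4.0.16 (R 4.3.3, TMM, quasi-likelihood, two-sided, Benjamini-Hochberg over 12360 genes). Standard errors are the size of the log2 change over the square root of F. For TPM, limma 3.58.1 was used for genes with a mean of at least 1 (9525 genes). In simulated data for 72 h against 0 h, 166 of 200 planted 2-fold changes among 12231 genes were recovered (83%), with 9 false calls. The planted genes had a mean count of at least 20, as many rose as fell, and no other gene was changed. The split between the scales and members with lower counts were thus not covered.

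The members and lists were chosen with earlier results of these data known. Named are up to 4 members per type with the highest mean TPM, up to 5 called members per direction and comparison with the largest change, no overlap and 20 or more counts on average, members at the threshold, untested or at 0 in a group, and up to 2 called genes per list and direction. Slbp, H1f0 and members named for a split between the scales fall outside this rule and were named after their values were seen.

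Replicate libraries differed by more than sampling noise (chi-square per gene 6.22 to 244). What a replicate number marks is not given in the labels. As deviations from group means, same-numbered libraries correlated above 0.1 in every pair in 5 of 7 comparisons (0.128 to 0.565 over 6575 genes), not for 36 h against 24 h (from 0.011) or 72 h against 0 h (from -0.0733). Alternatives were the size factors of DESeq2 1.42.0 in edgeR, its Wald test, library sizes without globins, no filter, the replicate number as a block, 3 TPM settings, a 2-fold minimum, and each library left out. Summing near copies was added after seeing the data. Figures were drawn with matplotlib. The result of 1 marker list is not reported here.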

Additional observations from a re-analysis of the deposited data

How the results depend on the processing

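The counts of members called kept within 1.5 times of the values reported with the size factors of DESeq2 in edgeR, its Wald test and library sizes without globins. With the replicate number as a block the counts were also the same or close (26 in place of 23 called higher at 24 h against 12 h, 43 in place of 42 at 36 h against 24 h, 24 in place of 23 at 48 h against 36 h), and the block moved no other count. Without a count filter 5 of 62 tested members were lower from 48 h to 72 h. With a 2-fold minimum 0 were lower from 24 h to 36 h (edgeR, 1 without the minimum and at an unadjusted p under 0.05, and 1 with DESeq2), 13 higher from 36 h to 48 h, and 1 lower from 48 h to 72 h.

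The TPM scale moved most counts. With log2(TPM + 1) and a mean of at least 1, higher and lower were 11 and 11 from 24 h to 36 h, 8 and 7 to 48 h, 15 and 6 to 72 h, and 28 and 3 over the course. With a pseudocount of 0.1 they were 11 and 11, 8 and 7, 14 and 7, and 27 and 3, and 15 were higher from 12 h to 24 h. With all genes above 0 in 3 libraries they were 10 and 13, 7 and 4, 14 and 7, and 30 and 4, with 11 higher at 12 h and 14 from there to 24 h. Fewer members are tested with the mean of 1 (42), and the cause of the rest was not tested. In the 3 TPM settings the change over the course turned to -0.38, -0.51 and -0.38 for Hist2h2be and to -0.91, -2.24 and -0.91 for Hist1h3g. In TMM-normalized CPM the type sums at 72 h over 0 h were 90.2 (H1), 14.1 (H2A), 98.7 (H2B), 30.2 (H3) and 66.3 (H4).

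With each library left out, the members called higher ranged from 15 to 18 at 12 h, 19 to 22 to 24 h, 39 to 40 to 36 h, 16 to 22 to 48 h, 28 to 41 to 72 h and 55 to 59 over the course. Those lower ranged from 0 to 1 to 36 h (0 without the first 36 h library), 2 to 4 to 48 h (4 without the third 48 h library) and 2 to 6 to 72 h (6 without the first 72 h library). They were 0 at 12 h and to 24 h, 1 over the course, and 0 both ways with SA. The number of members tested changed with the library left out. It was 61 without the first 36 h or the third 48 h library and 58 without the first 72 h library, against 56 with all libraries. These counts are thus not all of the same set. The type ratios ranged from 5.88 to 8.7 (H1), 0.429 to 0.671 (H2A), 5.49 to 8.13 (H2B), 1.76 to 2.98 (H3) and 5.09 to 8.13 (H4). Of 300 single-gene values 4 lost their call, 3 of them Hist1h3g. Summed with Hist1h2ao, Hist1h2ap was at -0.43 over the course and -0.11 from 48 h to 72 h. Counts were too low to test 6 members.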
